A study of Mus musculus with 11 samples.

Results

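The 8 genes described here encode the mouse MHC class II antigen presentation machinery, and they were taken by name from a table of 12932 genes measured by RNA-seq in sorted alveolar macrophages (AMs). They are H2-Aa, H2-Ab1 and H2-Eb1, which encode peptide-binding chains, Cd74, which encodes the invariant chain, H2-DMa, H2-DMb1 and H2-DMb2, which encode the peptide editor H2-DM, and Ciita, which encodes the class II transactivator. All 8 were in the table, and all 8 passed the filter on low values. The libraries came from 9-week-old C57BL/6J mice of both sexes, with 40000 sorted cells per library. Control mature AMs (mAMs; 4 libraries, labelled mAM_WT) came from Rxrab fl/fl mice without Cre, in which Rxra and Rxrb are both floxed but intact. RXR-deficient mAMs (4 libraries, labelled mAM_KO) and immature AMs (ImmAMs; 3 libraries, labelled Imm_KO, replicates 2 to 4) came from Cd11c Cre+ Rxrab fl/fl mice, in which the Cd11c promoter drives Cre. This promoter is also active in dendritic cells, so the deletion is not limited to AMs. The 2 mature groups were sorted as CD11b- SiglecF+ cells and the ImmAMs as CD11b+ SiglecF+ cells, and no ImmAM library from control mice was analysed here. The comparison of ImmAMs with either mature group therefore differs in sort gate, and that with control mAMs differs in genotype too.

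MHC class II molecules present peptides from the endosomal pathway to CD4 T cells. An alpha and a beta chain assemble with the invariant chain, which blocks the groove and routes the complex to endosomes. Lysosomal proteases trim the invariant chain to a short fragment, and H2-DM exchanges that fragment for antigenic peptide. Transcription of this group of genes is set by CIITA, a coactivator that binds no DNA itself and acts through factors on the X and Y boxes of their promoters. AMs at rest are known for low surface class II compared with dendritic cells and B cells, which express it constitutively. C57BL/6 mice carry the b haplotype, in which the E alpha chain is not made, so the product of H2-Eb1 has no E partner in these mice. The E alpha gene was not analysed here.

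The labels were first set against the markers of the cells. Itgam, which encodes CD11b, lay between 3.52 and 9.95 CPM (reads scaled to a common library size) in the 8 mature libraries and between 168 and 174 CPM in ImmAMs. Siglecf lay between 198 and 264 CPM in the mature libraries and lay between 19.3 and 19.7 CPM in ImmAMs. Of the other AM markers listed, Marco, Ear1, Ear2, Krt79, Car4, Fabp4 and Itgax were lower in ImmAMs than in control mAMs as well. Chil3 was higher there (log2 fold change 0.40, limma adjusted p = 0.0273), and Pparg was not called. The summed CPM of the 10 AM markers, most of it Chil3, was 22171 to 23885 in ImmAMs and 19379 to 25253 in control mAMs. Rxra lay between 310 and 380 CPM in control mAMs and between 334 and 419 CPM in RXR-deficient mAMs. Counts over the whole gene do not separate the floxed part from the rest, so they do not check the deletion. Depth ranged from 16659960 to 37873532 reads per library.

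Of the 8 genes, 6 lie on chromosome 17 within the MHC (GRCm38). H2-DMa (chr17:34119541-34139101), H2-DMb2 (chr17:34143307-34151555) and H2-DMb1 (chr17:34153072-34160230) are direct neighbours on the forward strand. H2-Ab1 (chr17:34257689-34269419, forward), H2-Aa (chr17:34282744-34287823, reverse) and H2-Eb1 (chr17:34305867-34316674, forward) follow. Ciita lies at chr16:10480059-10528418 on the forward strand. The promoter table of RefSeq (GRCm38.p6) was matched for 5 of the 8 genes, each with a sequence of 250 bases before to 50 bases after the start. A Y box (CCAAT, read here on the opposite strand) stood in the 100 bases before the start in 4 of them. The stretch of 60 bases that ends at that Y box is shown for these 4 genes, since it is where the factors that recruit CIITA bind class II promoters; capitals mark the Y box and, where its letters are present, the X box core (CCNAGNNAC).
H2-DMb1: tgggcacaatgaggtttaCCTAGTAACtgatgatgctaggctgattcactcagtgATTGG
H2-DMb2: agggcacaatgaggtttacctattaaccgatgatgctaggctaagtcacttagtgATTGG
H2-Aa: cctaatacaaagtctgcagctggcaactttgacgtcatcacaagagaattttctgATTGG
H2-Eb1: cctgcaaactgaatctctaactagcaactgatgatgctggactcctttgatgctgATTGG
These lie at chr17:34153075-34153134, chr17:34145104-34145163, chr17:34287867-34287926 (reverse strand) and chr17:34305753-34305812. A Y box in this orientation and range was present in 10.4% of all 32851 promoters of the table. Of these 4 stretches, only that of H2-DMb1 held an exact match to the letters of the X box core, at bases −98 to −90 before the start, with its Y box beginning at base −61. The search took only exact matches, so a stretch without one may still hold an X box that differs from these letters. Within the whole 300 bases, the X box core was found on either strand in H2-DMb1, H2-DMb2 and H2-Aa, against 17.3% of all promoters, and the Y box was found in 37.4% of all promoters. The stretches of H2-DMb1 and H2-DMb2 shared 54 of 60 bases. The 2 promoter sequences of H2-DMa held no X box core, and 1 of them held a Y box, at base −198.

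The expression level of the 8 genes was compared per length first, as CPM per kilobase of the longest coding transcript. In control mAMs H2-DMa was highest at 113 ± 9.09 (SD, n = 4), followed by Cd74 at 64.4 ± 25.3 and H2-DMb1 at 60.9 ± 4.26, which overlapped each other. H2-Aa (16.4 ± 7.10), H2-Ab1 (15.7 ± 5.02) and H2-DMb2 (10.6 ± 1.44) came next, and their libraries overlapped as well. H2-Eb1 was lower at 3.94 ± 1.98, and Ciita was lowest at 0.363 ± 0.0965. In these resting macrophages H2-DMa and H2-DMb1 of the peptide editor were thus present at a higher RNA level per length than the chains it acts on. The first 4 places and the last 2 were the same in RXR-deficient mAMs (n = 3) and in ImmAMs (n = 3). Only H2-Ab1 and H2-DMb2 traded places, at 11.8 ± 6.01 and 14.9 ± 1.57 CPM per kilobase in RXR-deficient mAMs against 16.0 ± 0.782 and 14.8 ± 1.49 in ImmAMs, and within each of these groups their libraries overlapped.

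H2-Aa encodes the alpha chain of the A molecule, the only classical class II molecule that can form in these mice. In control mAMs it measured 30.5, 15.3, 14.5 and 13.7 CPM in replicates 1 to 4. In RXR-deficient mAMs it measured 29.0, 14.0, 15.3 and 49.4 CPM. In ImmAMs it measured 19.5, 23.4 and 25.4 CPM. Replicate 1 of both mature groups stood at about the same high level, replicate 4 of the RXR-deficient mAMs stood above every other library, and the ImmAMs lay between.

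H2-Ab1 encodes the beta chain that pairs with the product of H2-Aa, and it followed the same libraries. It measured 27.8, 17.1, 13.6 and 17.9 CPM in control mAMs. It measured 22.6, 9.07, 11.2 and 50.3 CPM in RXR-deficient mAMs, and 19.4, 20.2 and 18.4 CPM in ImmAMs. The values of the 3 groups overlapped.

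Cd74 encodes the invariant chain, which is also a surface receptor for the cytokine MIF, and lies outside the MHC on chromosome 18. It measured 143, 79.1, 60.9 and 80.4 CPM in control mAMs. It measured 145, 53.9, 85.1 and 247 CPM in RXR-deficient mAMs, and 101, 106 and 121 CPM in ImmAMs. The same 3 libraries, replicate 1 of each mature group and replicate 4 of the RXR-deficient mAMs, were again the highest of the 11.

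H2-Eb1 encodes the beta chain of the E molecule. It measured 11.5, 5.09, 4.82 and 4.84 CPM in control mAMs. It measured 11.1, 3.17, 7.34 and 23.2 CPM in RXR-deficient mAMs, and 13.1, 14.3 and 13.4 CPM in ImmAMs. All 3 ImmAM libraries lay above all 4 control libraries and above RXR-deficient replicates 1 to 3, but below RXR-deficient replicate 4.

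**Figure D1:**
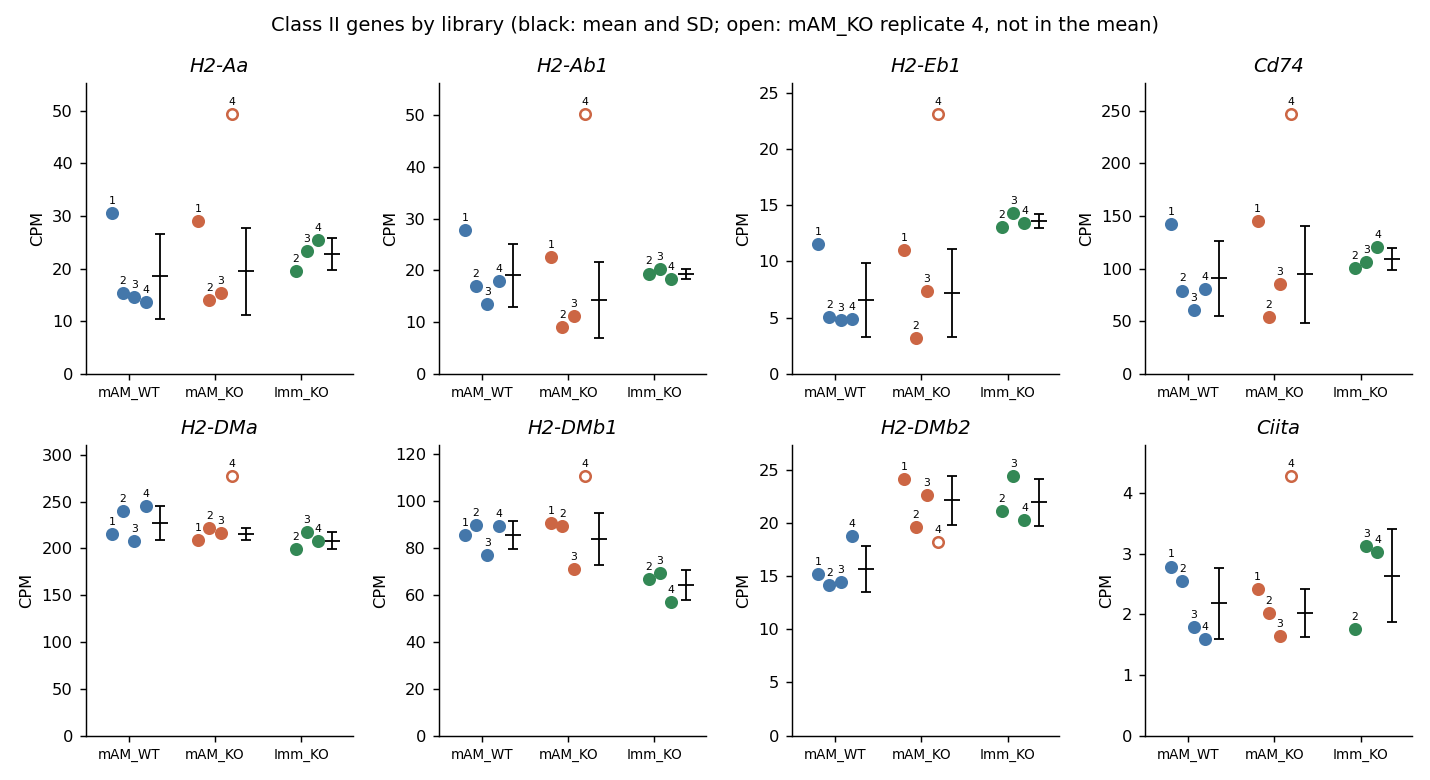
Level of the 8 class II genes in each library, in CPM on a linear axis from 0, with the replicate number above each point and the mean and SD of each group in black; RXR-deficient replicate 4 is drawn open and is not in the mean. H2-Aa, H2-Ab1, H2-Eb1 and Cd74 spread widely in both mature groups, with replicate 1 high in each and RXR-deficient replicate 4 highest (247 CPM for Cd74), while H2-DMa stayed between 200 and 278 CPM.

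RXR-deficient replicate 4 was in the deposited table, while the study's legends count 3 animals for this group. It was therefore left out of the fitted comparisons, and its values are given beside them. Over all genes, the chi-square per degree of freedom of its reads against replicates 1 to 3 was 36.8 to 45.4, while these 3 differed from each other by 17.6 to 26.2 and the control libraries by 17.9 to 43.7. This measure grows with depth, which was 17964528 to 23545727 reads in RXR-deficient mAMs and 19927934 to 37873532 in control mAMs. The control range is therefore not directly comparable. RXR-deficient replicate 4 was not apart in Itgam (7.81 CPM). Its summed neutrophil markers (24.6 CPM) lay below those of the other mature libraries (30.7 to 40.6 CPM), while the sums of other cell types lay within their range. For dendritic cells, 4 of the 10 markers were listed, and their sum was 8.29 CPM in this library against 6.14 to 10.2 CPM in the other mature libraries. Among them, Fscn1 was higher in this library (1.17 CPM, 25 reads) than in the other mature libraries (0.0563 to 0.417 CPM), and Clec9a was lower (4.42 CPM against 4.79 to 7.41 CPM). Of the 9 B cell markers only Ms4a1 and Ighm were listed, and their sum was 1.05 CPM in this library. Among the control mAMs the B cell sum was highest in replicate 3, at 5.86 CPM, where the summed class II chains and invariant chain were lowest, and it was 0.555 CPM in replicate 1, where they were highest. Xist, an RNA made from the inactive X chromosome of females, was highest in replicate 1 of both mature groups (539 and 458 CPM, against 55.5 to 237 CPM in the other mature libraries), and the Y-linked Ddx3y lay between 39.7 and 107 CPM in all 11 libraries. Xist was 188 CPM in RXR-deficient replicate 4, within the range of the other mature libraries, and 302 to 345 CPM in ImmAMs. With Xist as a covariate in the fit, the log2 fold change of H2-Eb1 was 0.84 in ImmAMs against control mAMs, still called, and 0.60 against RXR-deficient mAMs (limma adjusted p = 0.0226), where it was 1.16 and 1.10 without it, and H2-Aa and Cd74 against RXR-deficient mAMs and H2-Ab1 against control mAMs, none of them called, changed sign. In bulk RNA, a larger share of class II-expressing cells and more class II RNA per cell cannot be told apart.

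The proportions of the chains to each other moved less between libraries than their summed level. The sum of H2-Aa, H2-Ab1, H2-Eb1 and Cd74 ran from 80.2 CPM in RXR-deficient replicate 2 to 370 CPM in RXR-deficient replicate 4, a range of 4.62-fold over the 11 libraries. The ratio of H2-Aa to Cd74 stayed between 0.170 and 0.260 (mean 0.207 ± 0.0256, SD, n = 11), a range of 1.53-fold. That of H2-Ab1 to Cd74 stayed between 0.131 and 0.223, a range of 1.70-fold. The ranges were wider for the ratio of H2-Aa to H2-Ab1 (2.02-fold) and of H2-Eb1 to Cd74 (2.30-fold). Expressed as deviations from the group means of log2 CPM over the 11 libraries, Pearson's r between pairs of these 4 genes was 0.94 to 0.97. This describes 11 libraries of 3 groups and carries no p.

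Some proportions differed between groups. The ratio of H2-Eb1 to Cd74 was 0.111 to 0.135 in ImmAMs and 0.0587 to 0.0937 in the 8 mature libraries, so it was higher in every ImmAM library, RXR-deficient replicate 4 included. The ratio of H2-Aa to H2-Ab1 was 0.764 to 1.10 in control mAMs and 1.28 to 1.54 in RXR-deficient replicates 1 to 3, with replicate 4 at 0.982, within the control range. These ratios were chosen after the values were seen and were not tested.

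**Figure D2:**
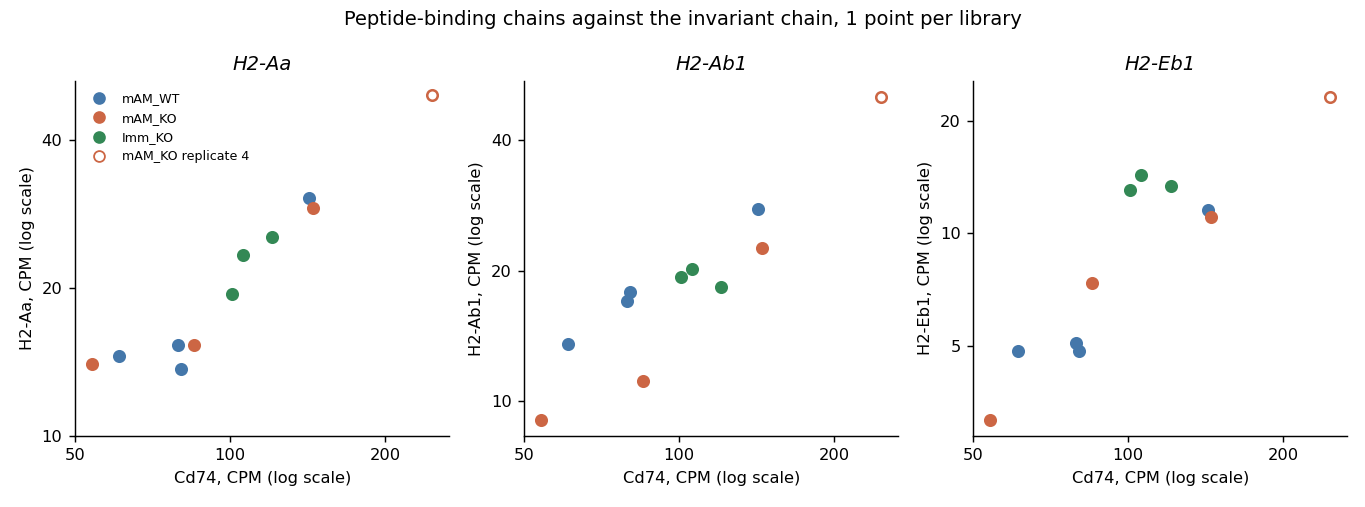
CPM of H2-Aa, H2-Ab1 and H2-Eb1 against CPM of Cd74, 1 point per library, both axes on a log scale. H2-Aa and H2-Ab1 rise with Cd74 across the libraries of all groups, and for H2-Eb1 the 3 ImmAM libraries (13.1 to 14.3 CPM) lie above mature libraries of like Cd74 level.

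Ciita encodes the regulator of the whole group and was barely expressed. It measured 2.79, 2.55, 1.78 and 1.60 CPM in control mAMs. It measured 2.42, 2.02, 1.63 and 4.28 CPM in RXR-deficient mAMs, and 1.76, 3.13 and 3.02 CPM in ImmAMs. RXR-deficient replicate 4 was the highest library for the regulator as for the chains. These values rest on 29 to 105 reads per library, the fewest of the 8 members in every library, so their relative counting error is the largest. The share of counting error in the differences between libraries was not tested. Pearson's r of the deviations of Ciita with those of H2-Aa was 0.84, and with those of H2-Ab1, H2-Eb1 and Cd74 it was 0.69 to 0.76.

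H2-DMa encodes the alpha chain of the peptide editor. It measured 215, 240, 208 and 246 CPM in control mAMs. It measured 209, 221, 217 and 278 CPM in RXR-deficient mAMs, and 200, 217 and 208 CPM in ImmAMs. Its coefficient of variation was 8.02% in control mAMs, against 43.3% for H2-Aa and 39.3% for Cd74, and replicate 1 was not high in either mature group. The editor's alpha chain RNA thus varied less in control mAMs than these 2 genes did. It followed the swings of the chains it loads only in part. Its highest library, RXR-deficient replicate 4 (278 CPM), was also the highest for the chains, and its r with H2-Aa, H2-Ab1, H2-Eb1 and Cd74 was 0.39 to 0.58.

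H2-DMb1 and H2-DMb2 encode 2 versions of the editor's beta chain. Their coding sequences are both 783 bases long and differ at 32 positions (95.9% identical). Of these, 17 fall in the single stretch of 60 bases, 1 read length, that differs most. It lies in exon 2 of both genes, at coding bases 208 to 267, and is shown because reads over it can tell the genes apart; capitals mark the bases that differ.
H2-DMb1: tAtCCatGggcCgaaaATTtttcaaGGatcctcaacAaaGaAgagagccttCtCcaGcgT
H2-DMb2: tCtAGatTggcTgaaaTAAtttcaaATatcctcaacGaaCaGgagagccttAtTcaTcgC
These are chr17:34155585-34155644 and chr17:34147803-34147862 on the forward strand (GRCm38). Of all 60-base stretches of the annotated transcripts, 19.5% in H2-DMb1 and 18.1% in H2-DMb2 occur in the other gene, and reads from those are split by estimate, so the levels of this pair are less certain than those of the other members. The remaining members shared at most 0.23% of their stretches with another gene.

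H2-DMb1 measured 85.6, 89.9, 77.0 and 89.4 CPM in control mAMs. It measured 90.8, 89.5, 71.1 and 111 CPM in RXR-deficient mAMs, and 66.6, 69.2 and 57.0 CPM in ImmAMs. All ImmAM libraries lay below all mature libraries, and the 2 mature groups overlapped.

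H2-DMb2 went the other way. It measured 15.2, 14.2, 14.4 and 18.8 CPM in control mAMs. It measured 24.1, 19.6, 22.6 and 18.2 CPM in RXR-deficient mAMs, and 21.1, 24.4 and 20.2 CPM in ImmAMs. All ImmAM libraries and RXR-deficient replicates 1 to 3 lay above all control libraries, while RXR-deficient replicate 4 lay within the control range.

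The balance of the 2 beta chains shifted accordingly. H2-DMb2 made up 13.6% to 17.4% of the CPM of both genes in control mAMs, 17.9% to 24.1% in RXR-deficient replicates 1 to 3 (14.1% in replicate 4) and 24.0% to 26.2% in ImmAMs. The sum of both genes was 101 ± 7.16 CPM (SD, n = 4) in control mAMs, 106 ± 10.9 (n = 3) in RXR-deficient mAMs and 86.2 ± 8.28 (n = 3) in ImmAMs. The control libraries overlapped both other groups, and the highest ImmAM library (93.6 CPM) lay just below the lowest RXR-deficient one (93.7 CPM).

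**Figure D3:**
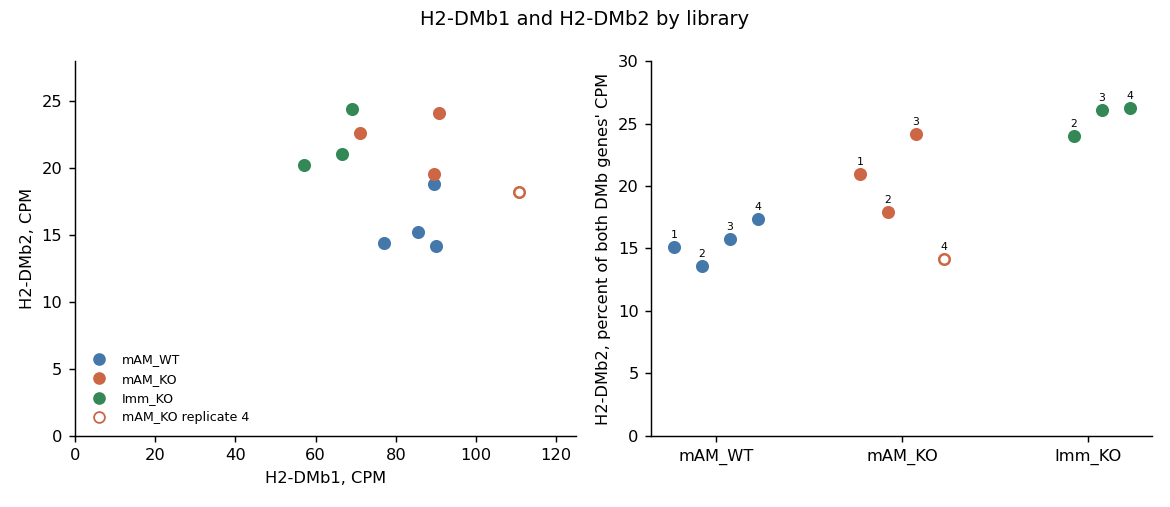
Left, CPM of H2-DMb2 against CPM of H2-DMb1, 1 point per library; right, H2-DMb2 as a percent of the CPM of both genes, with replicate numbers, on an axis from 0. H2-DMb2 makes up 24.0% to 26.2% in the 3 ImmAM libraries and 13.6% to 17.4% in the 4 control libraries.

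RXR-deficient mAMs were compared with control mAMs to ask whether loss of RXRs changed class II expression in cells that had reached the mature gate. Only H2-DMb2 was called, at 1.42-fold higher in RXR-deficient mAMs (log2 fold change 0.50 ± 0.13, SE; limma adjusted p = 0.0438; n = 3 against 4). The 4 genes of chains and invariant chain were not called, and their 95% confidence intervals were wide: −0.54 to 0.69 on the log2 scale for H2-Aa, −1.09 to 0.12 for H2-Ab1, −0.77 to 0.89 for H2-Eb1 and −0.63 to 0.66 for Cd74. For H2-DMa (−0.22 to 0.08) and H2-DMb1 (−0.26 to 0.19) the intervals were narrow. Thus 1 of 8 members was called, against 4.84% of the 12889 genes tested (2.25% called higher and 2.59% called lower), and groups did not overlap in 1 of 8 members against 20.1% of all genes. The median log2 fold change of the members was −0.01 and that of all genes tested −0.0019. The call of H2-DMb2 was weak: its adjusted p was 0.0939 with all 11 libraries, and it was above 0.05 in 8 of the 10 fits that left out 1 library (0.0518 to 0.142), the exceptions being control replicate 4 and RXR-deficient replicate 2.

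ImmAMs were compared with control mAMs to see how class II genes stood in the immature cells. H2-Eb1 was 2.24-fold higher in ImmAMs (log2 fold change 1.16 ± 0.38; adjusted p = 0.0239), H2-DMb2 was 1.41-fold higher (0.49 ± 0.13; adjusted p = 0.00654) and H2-DMb1 was lower, at 0.751 of the control level (−0.41 ± 0.10; adjusted p = 0.00473; limma, n = 3 against 4). H2-Aa (0.37 ± 0.29), Cd74 (0.34 ± 0.30), Ciita (0.27 ± 0.32), H2-Ab1 (0.07 ± 0.28) and H2-DMa (−0.12 ± 0.07) were not called. The count of 3 of 8 members called stood against a background of 48.1% (22.8% called higher and 25.3% called lower), and that of 3 of 8 without overlap stood against 51.3%; neither share exceeded its background. The members' median log2 fold change was 0.30, against −0.0025 for all genes. The calls of H2-DMb1 and H2-DMb2 held in every alternative fit, while that of H2-Eb1 was lost with all 11 libraries (adjusted p = 0.0747), without a variance trend (0.0595) and when control replicate 2, 3 or 4 or any ImmAM library was left out (0.0512 to 0.0660, log2 fold change 1.05 to 1.19). Without control replicate 1, H2-Aa was called as well (log2 fold change 0.64; adjusted p = 0.0375).

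ImmAMs were compared with RXR-deficient mAMs, cells of the same genotype on either side of the CD11b gate. Only H2-DMb1 was called, and it was lower in ImmAMs, at 0.769 of the level in RXR-deficient mAMs (log2 fold change −0.38 ± 0.11; limma adjusted p = 0.0149; n = 3 against 3). H2-Eb1 differed by 1.10 ± 0.41 and missed the threshold at an adjusted p of 0.0506. H2-Ab1 (0.55 ± 0.30), Ciita (0.35 ± 0.34), Cd74 (0.32 ± 0.32) and H2-Aa (0.30 ± 0.31) were not called, nor were H2-DMb2 (−0.01 ± 0.14) and H2-DMa (−0.05 ± 0.08). The 1 of 8 members called stood against 37.9% of all genes (17.7% called higher and 20.2% called lower), and the 2 of 8 without overlap, H2-Eb1 and H2-DMb1, stood against 51.2%. The median of the members was 0.31 and that of all genes −0.0053. The call of H2-DMb1 was lost without RXR-deficient replicate 1 or 2 or ImmAM replicate 4 (adjusted p = 0.0584 to 0.0734) and with a replicate block (0.0629), which called H2-Aa, H2-Ab1, H2-Eb1 and Cd74 higher instead. H2-Eb1 was called without control replicate 1 (0.0252) or RXR-deficient replicate 1 (0.0126), and H2-Ab1 was called without RXR-deficient replicate 1 (log2 fold change 0.94; adjusted p = 0.00960). These comparisons share libraries with each other, so their values are not independent.

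**Figure D4:**
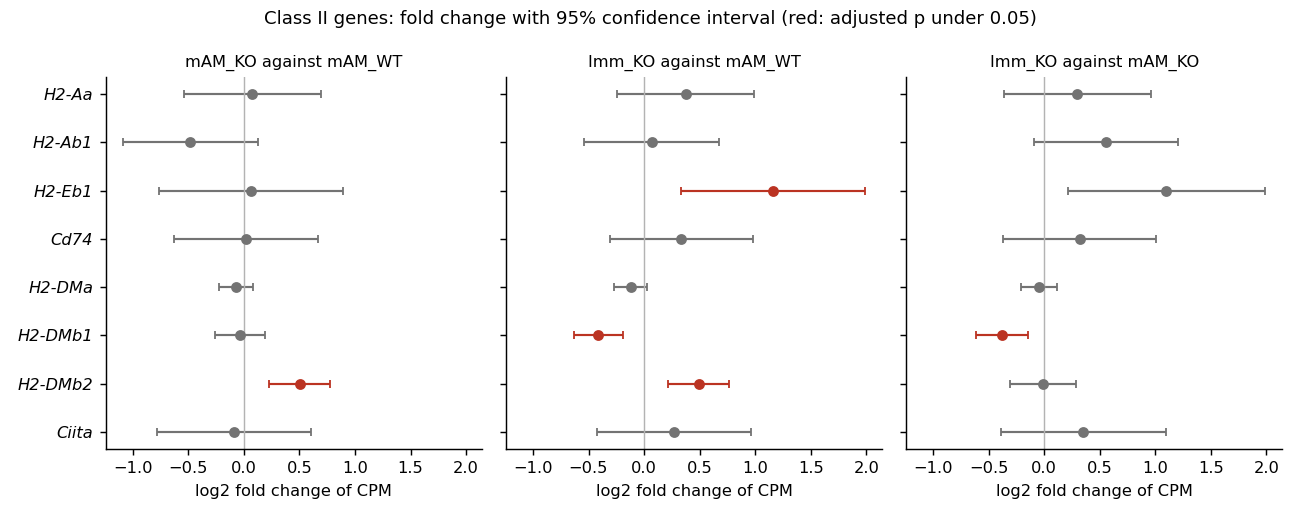
Log2 fold change of CPM for the 8 genes in the 3 comparisons, with 95% confidence intervals from limma; red marks an adjusted p under 0.05 over all 12889 genes. H2-DMb2 is called in both comparisons with control mAMs, H2-DMb1 in both comparisons of ImmAMs and H2-Eb1 in ImmAMs against control mAMs (1.16), while H2-DMa lies between −0.12 and −0.05.

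Markers of several other cell types were higher in ImmAMs, which were gated on both CD11b and SiglecF. The summed CPM of the 7 listed of 10 interstitial macrophage markers was 298 to 324 in ImmAMs and 7.70 to 20.7 in the mature libraries, and that of the 4 listed of 6 monocyte markers was 85.4 to 94.2 against at most 25.2. For dendritic cells, 4 of 10 markers were listed and summed to 23.5 to 26.1 CPM in ImmAMs, most of it Clec9a at 17.7 to 22.3 CPM. Zbtb46 was at 1.46 to 3.02 CPM there, and Flt3, Xcr1, Cd209a and Ccr7 had no row in the table. For B cells, 2 of 9 markers were listed and summed to 5.61 to 6.51 CPM, against 0.415 to 5.86 CPM in the mature libraries. Neutrophil markers (5 of 5 listed) summed to 51.7 to 61.9 CPM in ImmAMs and 24.6 to 40.6 CPM in the mature libraries, and no marker of T and NK cells, eosinophils, endothelial cells or fibroblasts was listed. The 2 listed of 7 type 2 cell markers, Abca3 and Etv5, summed to 144 to 177 CPM over all libraries. Nearly all of this was Abca3 (142 to 170 CPM), and Sftpc, Sftpb, Sftpa1, Lamp3 and Slc34a2 were not listed. Etv5 was 9.53 to 12.2 CPM in ImmAMs and 1.45 to 4.97 CPM in the mature libraries. The part of such cells in the H2-Eb1 difference was not tested.

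The rest of the class II pathway was described from a list of 37 genes, of which 32 were in the table and 31 were tested. In RXR-deficient against control mAMs, 2 were called higher and 1 lower (3 of 31, against 4.84% of all genes). In ImmAMs against control mAMs, 13 were called higher and 7 lower (20 of 31, against 48.1%). In ImmAMs against RXR-deficient mAMs, 11 were called higher and 5 lower (16 of 31, against 37.9%). The median log2 fold change of the 31 genes was 0.03, 0.10 and 0.09 in these comparisons.

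Of the 7 factors that sit on class II promoters (RFX5, RFXAP and RFXANK on the X box, the 3 NF-Y subunits on the Y box, and CREB1), none was called in RXR-deficient mAMs by limma (against 4.84% of all genes). Nfyc and Creb1 had an unadjusted limma p under 0.05 there, as did 3042 of all 12889 genes tested. In ImmAMs against control mAMs 2 of 7 were called, against 48.1% of all genes: Nfyc fell by 0.70 ± 0.07 on the log2 scale and Creb1 was higher by 0.29 ± 0.09 (adjusted p = 3.85e-06 and 0.0135). Nfyc, which encodes the gamma subunit of NF-Y, measured 49.7 to 52.7 CPM in control mAMs, 38.9 to 45.9 CPM in RXR-deficient mAMs and 29.8 to 32.8 CPM in ImmAMs.

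The inducers of Ciita moved in opposite directions. Interferon gamma is the classical inducer of Ciita in macrophages, and both of its receptor chains were higher in ImmAMs than in control mAMs, Ifngr1 2.84-fold (SE 0.07 on the log2 scale) and Ifngr2 by 0.67 ± 0.07 on the log2 scale. Jak2, the receptor's kinase, was higher by 0.50 ± 0.08. Irf1, which encodes a factor that acts on the Ciita promoter, fell by 0.40 ± 0.09. Spi1, which encodes PU.1, fell by 0.93 ± 0.09 and Irf8, which encodes its partner, was higher by 0.41 ± 0.09. In RXR-deficient mAMs, Ifngr1 was called higher (0.43 ± 0.07; adjusted p = 0.00842) and Spi1 lower (−0.46 ± 0.09; adjusted p = 0.0157). Ifngr1 measured 136 to 171 CPM in control mAMs, 198 to 209 CPM in RXR-deficient mAMs, replicate 4 included, and 419 to 442 CPM in ImmAMs, so the 3 groups did not overlap. Spi1 measured 416 to 537 CPM in control mAMs, 319 to 368 CPM in RXR-deficient replicates 1 to 3 (469 CPM in replicate 4) and 241 to 265 CPM in ImmAMs.

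Of the 7 genes that process antigen and the invariant chain in endosomes and lysosomes, 3 rose and 1 fell in ImmAMs against control mAMs (4 of 7, against 48.1% of all genes). Lgmn, which encodes an asparaginyl endopeptidase, was higher by 1.47 ± 0.10 (log2), Ctss, which encodes the cathepsin that makes the last cuts in the invariant chain, by 1.11 ± 0.08 and Ctsb by 0.51 ± 0.07. Ifi30, which encodes the lysosomal thiol reductase, fell by 0.35 ± 0.06. Ctss measured 3062 to 3714 CPM in control mAMs, 3875 to 4268 CPM in RXR-deficient mAMs and 7147 to 7811 CPM in ImmAMs. Ctsl, Ctsd and Sppl2a, the protease that clears the fragment left in the membrane, were not called in any comparison.

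Of the genes that set surface turnover, Marchf1 (listed as March1), a ubiquitin ligase that sends class II and CD86 from the surface to lysosomes, was higher in RXR-deficient mAMs (0.53 ± 0.12; adjusted p = 0.0252) and in ImmAMs (1.09 ± 0.12; adjusted p = 5.72e-06) than in control mAMs. It measured 83.7 to 122 CPM in control mAMs, 132 to 164 CPM in RXR-deficient replicates 1 to 3 (113 CPM in replicate 4) and 203 to 228 CPM in ImmAMs. With all 11 libraries, its call in RXR-deficient mAMs was lost (adjusted p = 0.0895), as was that of Spi1 (adjusted p = 0.131). Its relative Marchf8 was higher in ImmAMs by 0.22 ± 0.07, and Cd83, which opposes Marchf1, fell by 0.50 ± 0.17 (adjusted p = 0.0225 and 0.0274). The call of Marchf8 was lost without ImmAM replicate 2 or 3 (limma adjusted p = 0.0790 and 0.0611). That of Cd83 was lost without a variance trend (0.0659) and without control replicate 1 or 2 or ImmAM replicate 2 or 3 (0.0552 to 0.105). H2-Oa, which encodes a chain of the H2-DM inhibitor H2-DO, stood at 0.761 to 0.964 CPM in control mAMs, 0.970 to 2.38 CPM in RXR-deficient mAMs and 0.255 to 0.387 CPM in ImmAMs, too low to be tested.

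Of the 5 costimulatory ligands of T cells, 3 were higher and 1 lower in ImmAMs than in control mAMs (4 of 5, against 48.1% of all genes). Cd86 was 4.86-fold higher (log2 fold change 2.28 ± 0.24; adjusted p = 4.56e-06), with 6.02 to 11.5 CPM in control mAMs, 10.3 to 19.4 CPM in RXR-deficient mAMs and 41.3 to 43.1 CPM in ImmAMs. Cd80 was higher by 0.72 ± 0.11 and Icosl by 0.48 ± 0.10. Pdcd1lg2, which encodes the inhibitory ligand PD-L2, was lower (−1.05 ± 0.22; adjusted p = 0.00143), and Cd274, which encodes PD-L1, was not called. Cd44, the signalling partner of Cd74, fell by 0.74 ± 0.09 in ImmAMs, and Mif, which encodes its ligand, was called higher in ImmAMs against RXR-deficient mAMs (0.48 ± 0.15; adjusted p = 0.0190) but not against control mAMs. That call was lost with all 11 libraries (0.28; adjusted p = 0.301), where RXR-deficient replicate 4 measured 34.7 CPM of Mif against 25.8 to 28.4 CPM in ImmAMs, and without RXR-deficient replicate 2 or ImmAM replicate 3 or 4 (0.0565 to 0.0747).

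**Figure D5:**
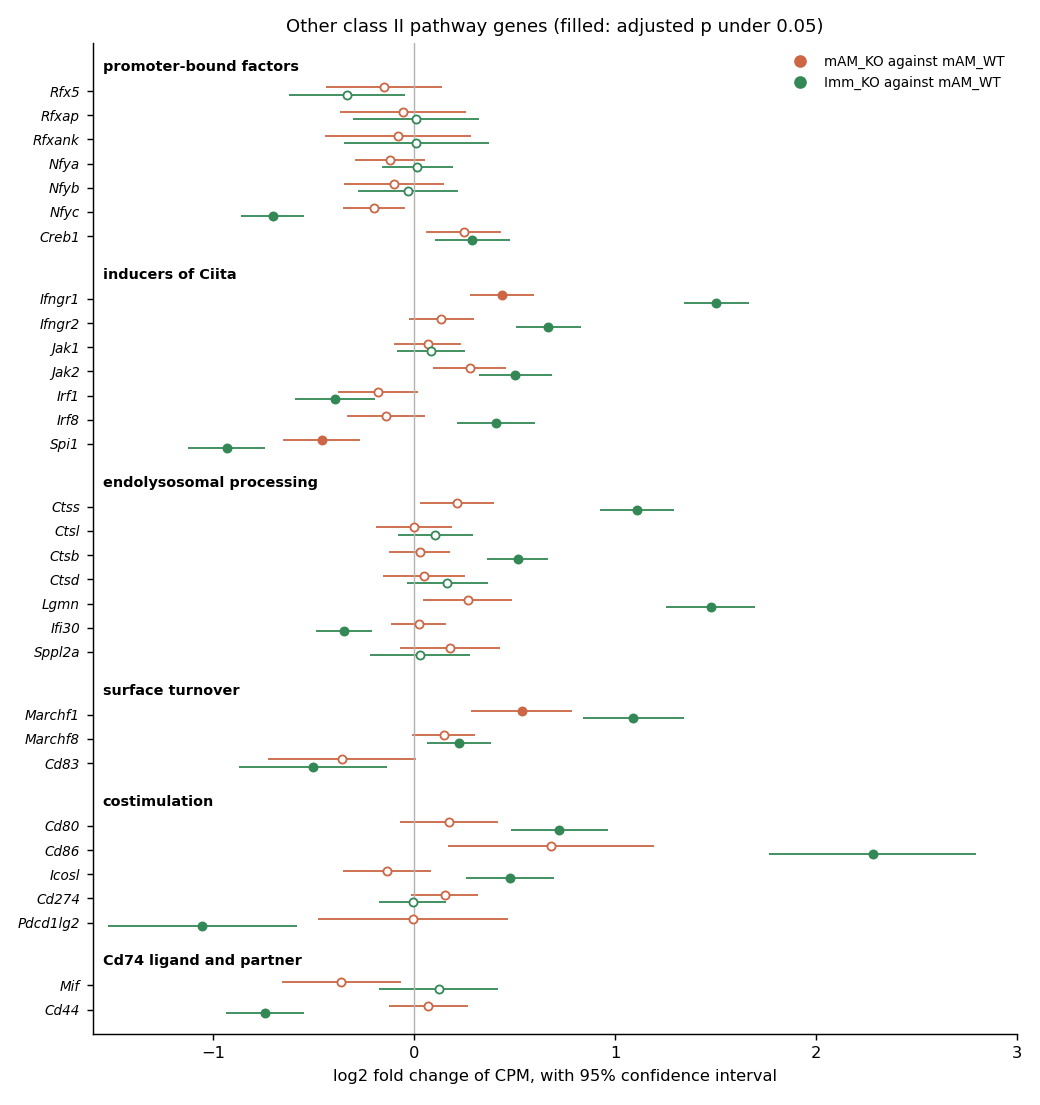
Log2 fold change of CPM, with 95% confidence intervals, of the 31 tested pathway genes in RXR-deficient and immature AMs against control mAMs; filled points have an adjusted p under 0.05. In ImmAMs 13 genes are called higher and 7 lower, with Cd86 farthest to the right (2.28) and Pdcd1lg2 farthest to the left (−1.05).

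The genes whose level over the 11 libraries was most like the mean of the 8 members (each standardised in log2 CPM) were H1f2 (Pearson's r = 0.80), Eno1 (0.79), Irf7 (0.79), Ifi27l2a (0.77) and Cxcl14 (0.77), out of 9952 genes averaging 5 CPM or more. H1f2 encodes a linker histone, Eno1 a glycolytic enzyme, Irf7 an interferon regulatory factor and Cxcl14 a chemokine. All 5 were higher in RXR-deficient replicate 4 than in any control library, as with Irf7 at 10.9 CPM against 4.10 to 6.33 CPM. With the group means taken out, the nearest genes were Ttc38 (0.96), Irf5 (0.93), Slfn5 (0.93), Trp53i11 (0.91) and Ctu2 (0.91). Slfn5 measured 3.84, 1.91, 1.11 and 1.84 CPM in control mAMs and 9.12, 1.42, 2.24 and 12.7 CPM in RXR-deficient mAMs. In ImmAMs it measured 26.2, 29.6 and 35.7 CPM, above all mature libraries. The genes of both lists were picked for their likeness to the members, so high values in libraries where the members were high follow from that choice.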

How the data were processed

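RNA-seq libraries of sorted AMs were analysed as 11 columns of 1 table, and groups were taken from the sample labels. Per the methods of the study, 60-base single-end reads were trimmed with Cutadapt, expected counts were estimated with RSEM 1.3.1 on GRCm38 transcripts, genes without 1 CPM in at least 3 samples were removed and limma's TMM scaling was applied. The deposited values are CPM that the authors scaled by library. Each was a whole read number plus 0.5 times a step per library, so reads were recovered (100% of values within 0.01 of a whole number). RSEM estimates need not be whole, so these may be rounded estimates. The sources differ on the origin of the cells (lavage or digested lung) and on the sequencer.

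Log2 CPM was fitted with limma 3.58.1 in R 4.3.3 (3 group means, eBayes with a variance trend, no further pseudocount) over 10 libraries. RXR-deficient replicate 4 was left out of the fit, since the study counts 3 animals in this group. Genes at 1 CPM or more in 3 of these libraries were tested (12889 of 12932), with Benjamini-Hochberg adjustment over all of them and a call at an adjusted p under 0.05. The study's legends count mice, while the labels do not tie libraries to mice, so p-values measure the spread between libraries. As alternatives, edgeR 4.0.16 (quasi-likelihood) and DESeq2 1.42.0 were run on the recovered reads, and other scalings, filters, pseudocounts, covariates, a replicate block and fits without each library were tried; edgeR called 566 genes between the mature groups, where limma called 624. The text names the 8 members, the pathway genes called in at least 1 comparison, the 5 genes most like the members by level and by deviation, and the marker genes of each list. Other genes named with values or as not called were chosen after their values were seen. The members and lists were chosen with earlier results of these data known. A gene of the pathway list is not reported here and was left out of the list's counts. Sequences were read with Python 3.11.15 and Biopython 1.88 from RefSeq (promoters) and from the GRCm38 reference (coding sequence).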

Additional observations from a re-analysis of the deposited data

Results flagged for a closer look

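In control mAMs, H2-Aa measured 30.5 CPM in replicate 1, far from the nearest of the other 3 libraries (15.3 CPM). H2-Eb1 measured 11.5 CPM in the same library, with the nearest at 5.09 CPM. The distance of the highest library to its neighbour was 0.903 and 0.961 of the group's whole range, above Dixon's limit at the 95% level for groups of 4. These were 2 of 24 groups of 4 libraries examined, and chance gives about 1 in 20. Both genes vary together with Cd74 and H2-Ab1, so the 2 values are not independent of each other.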

How the results depend on the processing

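The calls of H2-DMb1 and H2-DMb2 in ImmAMs against control mAMs held in all 15 alternative fits and in all 10 fits that left out 1 library. Between the mature groups the 1 member called, H2-DMb2, became 0 with all 11 libraries, without the TMM factor, with only the 2 groups compared, without a variance trend and with the replicate block; without single libraries the count was 0 to 1, and the adjusted p of H2-DMb2 over the other alternatives was 0.00795 to 0.0997. The pathway count of 3 became 1 with all 11 libraries, 0 without a variance trend, 5 with DESeq2, 1 with the replicate block and 1 to 6 without single libraries. For ImmAMs against control mAMs, the 3 members became 2 with all 11 libraries or without a variance trend, where H2-Eb1 was lost, 2 to 4 without single libraries and 5 with the replicate block. For ImmAMs against RXR-deficient mAMs, the 1 member became 2 with a pseudocount of 0.5 or 1 CPM, a filter at 5 CPM, median-ratio scaling, only the 2 groups compared, DESeq2, limma-voom or Xist as a covariate, 4 with the replicate block, which no longer called H2-DMb1 (adjusted p = 0.0629), and 0 to 2 without single libraries. The labels do not say whether libraries of the same replicate number are paired. The r of same-numbered deviations was −0.127 to 0.261, but libraries of different numbers were not compared, so these values cannot tell whether the numbers pair the libraries. The cause of these changes was not tested.

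Directions turned only for values that were not called. Between the mature groups, with all 11 libraries, H2-Ab1 became 0.000328, H2-DMa 0.019, H2-DMb1 0.068 and Ciita 0.19 (log2); H2-Eb1 became −0.088 with limma-voom and −0.045 with the replicate block, and Cd74 −0.015 with the block. In ImmAMs against control mAMs, H2-Ab1 became −0.15 with Xist as a covariate. Against RXR-deficient mAMs, H2-Aa became −0.059 with all 11 libraries and −0.021 with Xist, Cd74 became −0.058 and −0.084, and H2-DMb2 became 0.057 with all 11 libraries, 0.0025 with median-ratio scaling, 0.0011 with edgeR, 0.0037 with DESeq2 and 0.014 with limma-voom. Without single libraries, log2 fold changes between the mature groups ran from −0.25 to 0.34 for H2-Aa, −0.34 to 0.57 for H2-Eb1, −0.35 to 0.37 for Cd74, −0.097 to 0.079 for H2-DMb1 and −0.22 to 0.060 for Ciita. In ImmAMs they ran from −0.078 to 0.27 for H2-Ab1 against control mAMs, and from −0.029 to 0.68 for Cd74 and −0.097 to 0.054 for H2-DMb2 against RXR-deficient mAMs.

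The count of all genes called between the mature groups, 624, became 337 with all 11 libraries, 199 with only the 2 groups, 122 without a variance trend, 1352 with DESeq2, 174 with the replicate block and 162 to 861 without single libraries. The share called higher, 46.5%, was 46.5% to 52.1% under the other scalings. Ciita rests on few reads, and the H2-DMb1 and H2-DMb2 split rests on how shared reads were assigned.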
